A study of Mus musculus with 3 samples.

Results

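Chromosomes 12 and 14 carried the fewest c-FOS peaks per Mb of the 19 mouse autosomes. Every listed peak on either chromosome was taken, which gave 256 of the 15011 peaks of the series, 147 on chromosome 12 and 109 on chromosome 14. The peaks come from chromatin immunoprecipitation followed by sequencing (ChIP-seq) in ASZ001, an established mouse basal cell carcinoma line. There were 2 c-FOS ChIP samples and 1 input sample without antibody. All 3 came from cells with a constitutively active Ras (RasV12) and an shRNA knockdown of TGFbR1, a TGF-beta receptor, and all had been induced with Dox and 4OHT 6 days earlier. Which agent switched on which construct is not stated in the labels. The experiment models a transition from basal to squamous cell carcinoma, but no uninduced or unmodified cells were among these samples, so no change on induction can be read. One list of intervals stands for both ChIP samples, with no score, height or read count. The depth is therefore unknown, no value has a replicate error, and no difference between chromosomes was tested.

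c-FOS is a subunit of AP-1, a transcription factor in which FOS proteins pair with JUN proteins. It is induced by growth factors, Ras signalling and stress, and in keratinocytes AP-1 takes part in proliferation, wound responses and differentiation. Most AP-1 sites in mammalian cells lie away from promoters, in open enhancer chromatin, so peaks tend to gather around active genes.

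Both chromosomes hold genes that are well known in AP-1 biology. Chromosome 12 carries Fos itself, which encodes c-FOS. Next to it are Jdp2, which encodes a repressor that dimerizes with JUN, and Batf, a JUN partner in immune cells, with 0 other protein-coding genes between Jdp2 and either of them. Chromosome 14 carries Plau (urokinase, a protease of cell invasion), Mmp14 (a membrane-bound matrix metalloproteinase), Tgm1 (the transglutaminase that cross-links the cornified envelope) and Klf5 (an epithelial transcription factor). These come from a list of 53 signal-responsive and epithelial genes drawn up because they lie on these chromosomes, 25 on chromosome 12 and 28 on chromosome 14 by the RefSeq annotation of GRCm38. The peaks are on the older build mm9, so whether any of them lies at these genes was not analysed here, and peak sequences were not used.

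The low density came from fewer occupied regions and from fewer peaks in each. Chromosome 12 held 1.21 peaks per Mb over 121 Mb and chromosome 14 held 0.871 over 125 Mb, and the chromosomes were selected on these low counts. The next sparsest autosomes were chromosome 9 with 2.74 peaks per Mb and chromosome 10 with 2.88, and the other 17 autosomes together held 6.61, 6.37 times the 1.04 of chromosomes 12 and 14 combined. These 2 chromosomes made up 9.97% of autosomal length and held 1.71% of autosomal peaks.

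Of the 121 whole windows of 1 Mb on chromosome 12, 57 (47.1%) held a peak, and on chromosome 14 it was 50 of 125 (40%). On the other 17 autosomes 73.6% of windows were occupied, from 58.9% on chromosome 10 to 88.5% on chromosome 19. An occupied window held a mean of 2.58 peaks on chromosome 12 and 2.18 on chromosome 14, against 8.97 on the other autosomes, where the lowest mean was 4.20 on chromosome 9. The share of occupied windows thus differed 1.69-fold and the content of an occupied window 3.75-fold. In windows of 1 Mb the content was thus the larger component, but this split depends on the size of the window. With peaks merged within 10 kb, the number of regions per Mb still differed 5.12-fold, so at that scale most of the difference lay in the number of regions. All of these counts follow from the same peaks that chose the chromosomes, so they describe how the low density was made up and add no separate support for it.

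**Figure D1:**
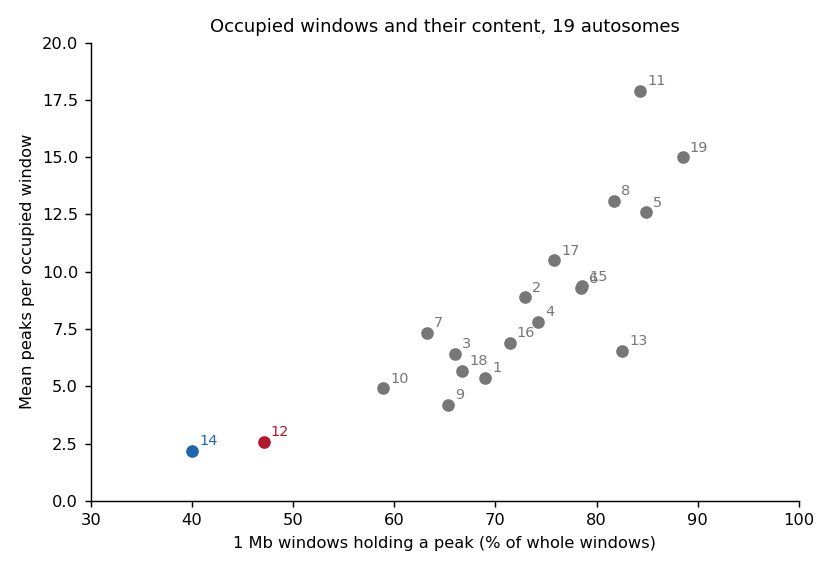
Share of whole 1 Mb windows that hold a c-FOS peak (x axis, percent) against the mean number of peaks in an occupied window (y axis), with 1 point per autosome and its number beside it. Chromosomes 12 (red; 47.1% and 2.58) and 14 (blue; 40% and 2.18) are lowest on both axes.

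Many occupied windows held a lone peak. On chromosome 14, 25 of the 50 occupied windows held a single peak, and on chromosome 12 it was 20 of 57 (35.1%). Chromosome 12 had nearly as many windows with 2 peaks (19) and with 3 or more (18). On the other 17 autosomes 16.5% of occupied windows held 1 peak, with chromosome 10 at 36.8%, above chromosome 12. Windows with 5 or more peaks numbered 8 on chromosome 12 and 7 on chromosome 14, and the fewest on any other autosome was 22.

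Gene number was set beside these counts as far as the annotation allowed. Chromosome 12 had 679 protein-coding genes, or 5.60 per Mb, and with chromosome 18 at 5.63 it was among the 2 lowest of the 19 autosomes. Chromosome 14 had 851, or 6.80 per Mb, with 4 autosomes below it. These densities divide gene counts on GRCm38 by mm9 lengths, so the order of chromosomes 12 and 18 is not settled. The 2 chromosomes are also home to arrays of immune receptor gene segments, with 132 V segments annotated on chromosome 12, which carries the immunoglobulin heavy chain locus, and 128 on chromosome 14, which carries the T cell receptor alpha and delta locus. Chromosome 14 further had 39 protein-coding olfactory receptor genes, and chromosome 12 had 0. Neither family is particular to these chromosomes. Chromosome 6 had 124 V segments and carried 7.30 peaks per Mb. Chromosomes 2, 7, 9, 10, 11, 17 and 19 had more protein-coding olfactory receptor genes than chromosome 14, from 51 on chromosome 17 to 287 on chromosome 2. Their densities ran from 2.74 peaks per Mb on chromosome 9 to 15.0 on chromosome 11. Whether either family bears on peak density was not tested.

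Chromosomes with like gene numbers, picked after the counts had been seen, are set beside them here. All of the other 17 autosomes held more peaks than either, so these had to as well. Chromosome 18 is closest to chromosome 12 in gene density, with 5.63 protein-coding genes per Mb, and carried 3.76 peaks per Mb. Chromosome 16 has the same 679 protein-coding genes as chromosome 12, on a shorter length, and carried 486 peaks, 4.94 per Mb. Chromosome 13, with 829 genes on 120 Mb, is close to chromosome 14 in both and carried 651 peaks, 5.41 per Mb. Per protein-coding gene there were 0.216 peaks on chromosome 12 and 0.128 on chromosome 14, against 0.769 on the other 17 autosomes together. The lowest among those were 0.283 on chromosome 9, 0.349 on chromosome 7 and 0.374 on chromosome 10. These comparisons and the peaks per gene use the same counts that chose the chromosomes, and the part of gene number in the low density was not tested.

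On chromosome 12 the peaks lay mainly in the distal part. From 70000001 to 90000000 there were 52 peaks, 35.4% of the chromosome's peaks on 16.5% of its length, and from 100000001 to 120000000 there were 43. The 60 Mb from 10000001 to 70000000 held 33 peaks, 0.550 per Mb on 49.5% of the length. The richest 10 Mb, from 80000001 to 90000000, held 32 peaks, or 3.20 per Mb. The mean over all of chromosome 9 was 2.74, and the richest 10 Mb of that chromosome was not computed. The last peak ended at 118669650. These stretches were marked out after the counts had been seen.

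On chromosome 14 the peaks were spread over several stretches, and a long one past the middle was almost empty. The richest 10 Mb, from 20000001 to 30000000, held 20 peaks, or 2 per Mb. Between 50000001 and 80000000 there were 46 peaks (42.2%), or 1.53 per Mb. The 40 Mb from 80000001 to 120000000, 32.0% of the chromosome, held 8 peaks, or 0.200 per Mb. Past 120000001, the terminal 10 peaks brought the density back to 1.92 per Mb, and the last peak ended at 123312499. The first peak of chromosome 14 began only at 8650373. On the other 17 autosomes the first peak lay between position 3004151 on chromosome 13 and position 5219605 on chromosome 3, and on chromosome 12 the first began at 3572859. Assembled mouse chromosomes begin with an unsequenced centromeric stretch in which no peak can be listed. Neither its length nor other unsequenced stretches of mm9 were mapped here. Whether they bear on the late first peak of chromosome 14 was not tested.

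**Figure D2:**
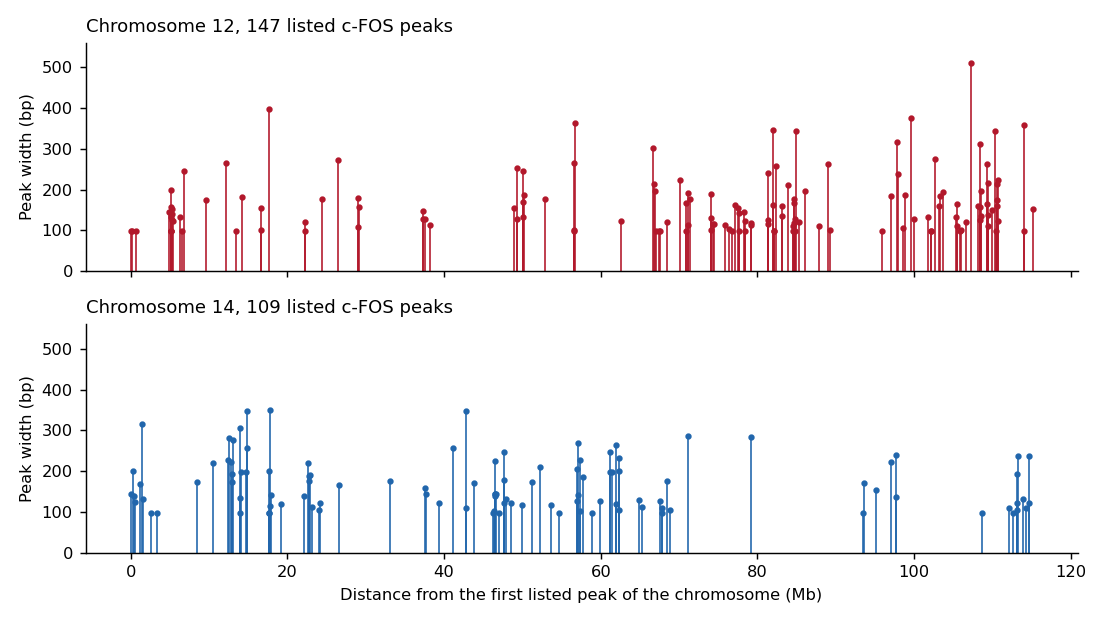
Each c-FOS peak of chromosome 12 (top, 147 peaks) and chromosome 14 (bottom, 109 peaks), placed by its distance in Mb from the first listed peak of its chromosome, with its width in bp as the height of the line. Peaks crowd in the distal part of chromosome 12, while chromosome 14 has a nearly empty stretch past its middle and its widest peak measures 350 bp.

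The 3 longest stretches without a peak on any autosome were on these 2 chromosomes. Those of chromosome 14 measured 14.24 Mb (chr14:87816460-102053072), 11.03 Mb (chr14:106296698-117324410) and 7.990 Mb (chr14:79826425-87816176). The longest on chromosome 12 measured 10.73 Mb (chr12:41750657-52478483), 8.249 Mb (chr12:32700393-40949247) and 6.661 Mb (chr12:92826963-99488062). The longest on the other 17 autosomes was 9.08 Mb, on chromosome 10. A single peak of 283 bp, chr14:87816177-87816459, separated the 14.24 and 7.990 Mb stretches. Its nearest neighbour was 7.99 Mb away, farther than for any other autosomal peak, and the largest such distance on the other 17 autosomes was 6.21 Mb, on chromosome 17. On chromosome 12 the most isolated peak, chr12:66137359-66137481, was 123 bp wide and lay 4.16 Mb from the next.

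Empty windows also ran together. Of 75 empty 1 Mb windows on chromosome 14, 53 (70.7%) were in runs of 3 or more, and the longest run held 14. On chromosome 12 it was 43 of 64 (67.2%), with a longest run of 10. Chromosome 18 had a like share, 66.7% of its 30 empty windows, with only 33.3% of its windows empty. On chromosomes 14 and 12 the windows were 60% and 52.9% empty. Runs grow with the empty share, and whether those on chromosomes 12 and 14 exceed what it gives by itself was not tested.

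The densest windows of both chromosomes were modest. On chromosome 12 the window with the most peaks, from 8000001 to 9000000, held 11, and the densest on chromosome 14, from 55000001 to 56000000, held 7. Each of the other 17 autosomes had a window with at least 20 peaks. The 11 peaks of the chromosome 12 window fell within 421 kb. Outermost was a peak of 146 bp at chr12:8507017-8507162, 261 kb before the rest, and 8 of the 11 had a neighbour within 10 kb. Among these 8 were 4 peaks within 4.82 kb, chr12:8784868-8789687, made of 2 close pairs. Their widths ran from 98 to 198 bp, and they were the largest group on either chromosome when peaks were linked across gaps of up to 10 kb. The largest such group on the other autosomes had 28 peaks, and the smallest maximum among them was 5.

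The second window of chromosome 12, from 88000001 to 89000000, held 10 peaks over 685 kb. Of these, 3 had the smallest width of the list, 98 bp, while chr12:88488176-88488518 measured 343 bp. Further windows on chromosome 12 with many peaks began at 112000001 (7 peaks), 81000001 (6) and 114000001 (6). The 6 peaks of the last lay within 171 kb.

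On chromosome 14 the 7 peaks from 55052992 to 55674282 spanned 621 kb and included 3 peaks within 2.81 kb, chr14:55191958-55194762, of 138 to 144 bp each. Windows with 6 peaks began at 21000001, 26000001, 65000001 and 70000001. That at 21000001 held wide peaks for this chromosome, from 173 to 282 bp with a median of 224 bp, and none of its 6 had a neighbour within 10 kb. In the window at 26000001 the peaks ranged from 98 bp to the 350 bp of chr14:26427631-26427980, the widest of the chromosome.

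Close groups were few, and most were on chromosome 12. Linking peaks across gaps of up to 1 kb gave 10 pairs and 1 group of 3 on chromosome 12, and 3 pairs on chromosome 14. The group of 3, chr12:60141021-60141798, spanned 778 bp, with gaps of 80 to 233 bp and widths from 98 to 266 bp. Its closest neighbour outside the group, 90.4 kb away, was one of the widest peaks of the chromosome, chr12:60232205-60232566 at 362 bp.

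The tightest pair, chr12:8784868-8785274, had a gap of 76 bp, which was also the smallest gap between peaks on the other 17 autosomes. The shortest pair from end to end, chr12:85657710-85658055, joined 2 peaks of 98 bp across 150 bp. The pair chr12:117519204-117519768 joined a peak of 98 bp to one of 359 bp, among the 5 widest of the chromosome, across 108 bp, and chr12:111934240-111934830 joined peaks of 311 and 126 bp across 154 bp. The last 2 of these pairs thus combined a wide and a narrow interval. Whether a close pair is 2 sites or 1 site divided in peak calling was not tested.

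The other 6 pairs of chromosome 12 spread along it. In the densest window lay chr12:8789018-8789687, with a gap of 414 bp. The proximal pairs chr12:32634270-32635489 and chr12:40949248-40950017 had gaps of 932 and 495 bp. The second began where the 8.249 Mb empty stretch ends, and the first lay just before it, with 1 peak between. Farther on came chr12:52930175-52930782 (gap 227 bp), chr12:84973067-84973786 (478 bp) and chr12:114165627-114166846 (886 bp). On chromosome 14 the pairs were chr14:22667749-22668297 (gap 316 bp), chr14:55191958-55192379 (141 bp) and chr14:106295331-106296697 (991 bp), and the last of these stood at the edge of the 11.03 Mb empty stretch.

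The share of peaks with a near neighbour was higher on chromosome 12 than on chromosome 14, with intervals that overlap slightly at 1 kb and do not at 10 kb. On chromosome 12, 23 peaks had a neighbour within 1 kb, or 15.6% (Wilson 95% interval 10.7 to 22.4%), and on chromosome 14 6 peaks did, or 5.50% (2.55 to 11.5%). Within 10 kb the shares were 33.3% (26.2 to 41.3%) and 17.4% (11.5 to 25.6%). On the other 17 autosomes 25.1% of peaks had a neighbour within 1 kb and 49.1% within 10 kb. Chromosome 9 had lower shares than chromosome 12, 12.1% and 28.2%, at 2.26 times its density. These intervals hold counting error alone and are too narrow where paired peaks count together, and a sparse chromosome has fewer neighbours by its density alone.

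Gaps between neighbouring peaks had a median of 213 kb on chromosome 12 and 309 kb on chromosome 14, against 15.0 to 85.1 kb on the other autosomes. Dividing the median gap by the mean gap takes out the general scale of the gaps, and a low ratio means many short gaps and a few long ones. The ratio was 0.270 on chromosome 12 and 0.292 on chromosome 14. On the other 17 autosomes it ran from 0.139 on chromosome 10 to 0.305 on chromosome 18, with a median of 0.235. By this measure the spacing of the 2 chromosomes was within the range of the rest, toward its even end. The ratio has no interval here. It is not free of density, since very short gaps, which were a smaller share here than on the other autosomes together, enter it.

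**Figure D3:**
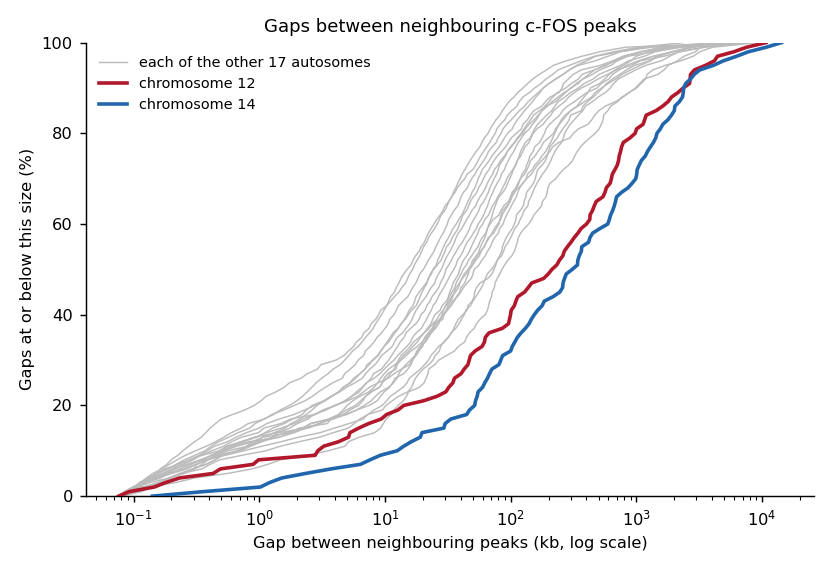
Percent of gaps between neighbouring peaks (y axis) at or below a given size in kb (x axis, log scale), for chromosome 12 (red), chromosome 14 (blue) and each of the other 17 autosomes (grey). Both coloured curves lie to the right of the grey ones over most of the range, with medians of 213 and 309 kb against at most 85.1 kb, while at short gaps, of up to about 10 kb, the chromosome 12 curve lies mostly within the grey ones.

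Widely isolated peaks were frequent. No neighbour within 1 Mb was found for 10 peaks of chromosome 12 (6.80%, Wilson 95% interval 3.74 to 12.1%) and 19 of chromosome 14 (17.4%, 11.5 to 25.6%). The other 17 autosomes held 77 such peaks, 0.523% of theirs. The highest share among them was on chromosome 10, with 16 peaks (4.28%, 2.65 to 6.84%). That is more by count than on chromosome 12, and the intervals of the 2 overlap. Chromosome 9 had 2.35% (1.20 to 4.57%). Chromosomes 12 and 14 carried 29 of 106 such autosomal peaks, 27.4%, a share that the low density itself raises. These 29 had a median width of 171 bp (binomial 95% interval of the median 123 to 177 bp) against 143.5 bp (132 to 158 bp) for all 256, a difference within counting error.

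Width was not used in choosing the chromosomes, and the peaks of chromosome 12 were somewhat narrow. Their median width was 137 bp (binomial 95% interval of the median 127 to 158 bp), with quartiles of 110 and 186 bp. On chromosome 14 the median was 144 bp (132 to 176 bp), with quartiles of 116 and 206 bp. The medians of the other 17 autosomes ran from 153 to 168 bp, so chromosomes 12 and 14 had the lowest point values, but their intervals reached into this range. Leaving out the peaks of 98 bp, the smallest width in the list, brought the medians to 158 and 171 bp. Chromosome 12 then still had the lowest median of the 19, while chromosome 14 moved from the second lowest to place 14 from the bottom and was above the 169 bp of the other autosomes together.

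**Figure D4:**
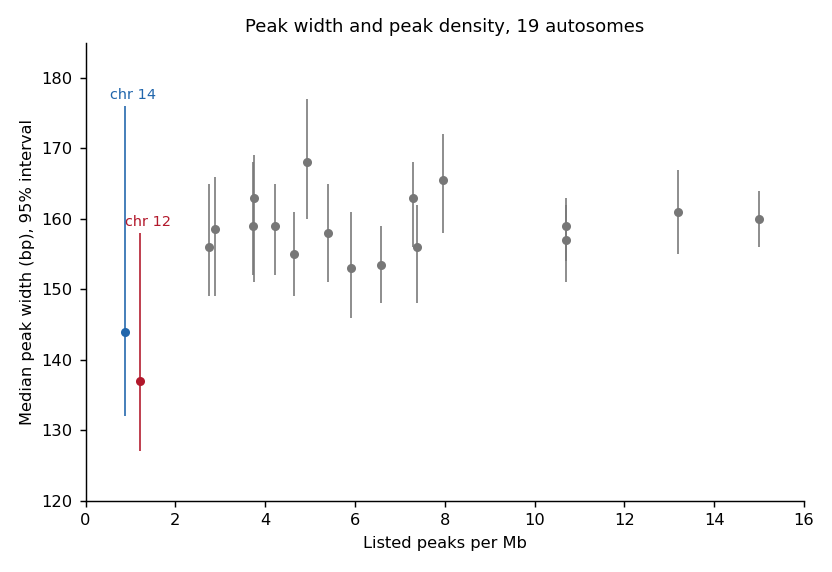
Median peak width in bp (y axis, not starting at 0) against listed peaks per Mb (x axis) for the 19 autosomes, with binomial 95% intervals of the median as bars. Chromosomes 12 (red, 137 bp) and 14 (blue, 144 bp) have the lowest medians, and their long bars, from 147 and 109 peaks, overlap those of other autosomes (grey).

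Peaks of exactly 98 bp made up 24 of the 147 on chromosome 12 (16.3%, Wilson 95% interval 11.2 to 23.1%) and 13 of the 109 on chromosome 14 (11.9%, 7.10 to 19.3%). On the other autosomes the share was 10.7%, from 7.62% to 12.9%, so that of chromosome 12 was the highest of the 19, with an interval that reached into the range of the rest. The first 3 peaks of chromosome 12 were all of this width.

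Wide peaks had low shares by point value. Above 300 bp there were 11 peaks on chromosome 12 (7.48%, Wilson 95% interval 4.23 to 12.9%) and 5 on chromosome 14 (4.59%, 1.98 to 10.3%). The share was 11.9% on the other autosomes, with the lowest, 8.82%, on chromosome 9. The interval of chromosome 12 holds the 11.9%, so its share was within counting error. That of chromosome 14 lies below 11.9% but reaches past 8.82%. One peak exceeded 500 bp, chr12:110776406-110776914 at 509 bp, and it stood alone, 644 kb from its nearest neighbour. None of the 109 peaks on chromosome 14 did, which allows a share of up to 2.75%, above the 1.78% of the other autosomes, so a lack of such peaks was not detectable with this number.

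The next widest on chromosome 12 were chr12:21291809-21292205 at 397 bp and chr12:103151121-103151495 at 375 bp, 1025 and 349 kb from any other peak. On chromosome 14 the widest after the first were chr14:23468859-23469206 (348 bp), chr14:51427272-51427618 (347 bp), chr14:10118446-10118761 (316 bp) and chr14:22650814-22651120 (307 bp). The first of these had a neighbour at 1.22 kb. The others lay 62.3, 147 and 16.6 kb from theirs. Of the 5 widest peaks of each chromosome, all but chr12:117519410-117519768 and chr14:23468859-23469206 had no neighbour within 10 kb, and over all 256 peaks 73.4% had none.

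Peaks with a neighbour within 10 kb had a median width of 129 bp on chromosome 12 (49 peaks, binomial 95% interval 116 to 160 bp) and 141 bp on chromosome 14 (19 peaks, 121 to 201 bp). The remaining peaks had medians of 145 bp (127 to 160 bp) and 156 bp (131 to 177 bp). On the other 17 autosomes the order was the opposite, 163 bp for peaks with such a neighbour and 155 bp for the rest. On chromosomes 12 and 14 the intervals overlapped widely, so the order there is not larger than the counting error.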

How the data were processed

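c-FOS ChIP-seq peaks were analysed from 2 ChIP samples and 1 input, which enter through 1 list. Reads were aligned with Bowtie2 to mm9 and peaks called with MACS2, per the submitters' processing notes; their versions and threshold, and how the input and both ChIP samples entered, are not stated in the labels. The deposited values are chromosome, start and end in bp. They have no score and no depth. All peaks fitted within mm9 chromosome lengths; 55 passed the ends of mm10 chromosomes, 0 of them on chromosomes 12 or 14 (lengths from GenomeInfoDb 1.38.1, R 4.3.3).

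Starts were turned to 1-based positions. Gaps, groups, windows (by peak middle, whole windows only) and widths were computed with scipy 1.17.1, pandas 2.3.3 and numpy 2.4.6 under Python 3.11.15, and plotted with matplotlib 3.10.9. Lengths include assembly gaps. The functions were tested on simulated intervals. Gene names and numbers come from RefSeq on GRCm38.p6, and no coordinate of it was joined to a peak.

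The chromosomes and lists were chosen with earlier results of these data known. Regions named were all groups linked within 1 kb, the 5 widest peaks, the 5 fullest 1 Mb windows and the 3 longest empty stretches of each chromosome, the first and last peaks, and, added after their values were seen, the most isolated peaks. Alternatives were merging close peaks, keeping wider peaks, dropping the smallest width or the fullest window, and 5 Mb windows.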

Additional observations from a re-analysis of the deposited data

How the results depend on the processing

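Chromosomes 14 and 12 had the lowest and second lowest density of the 19 autosomes in all 6 versions of the list. They had the most and second most empty windows in all 4 versions counted in 1 Mb windows. The chromosomes were chosen on these same counts, and each version comes from the same list. Their order in these versions therefore adds no separate support for the low density. Keeping peaks wider than the list median, a weak stand-in for a stricter threshold, left 0.446 peaks per Mb on both together, and the other autosomes were then 7.42 times as dense. It also gave a median width of 210 bp, 72.0% empty windows, shares of 1.82% and 10.9% with a neighbour within 1 kb and 10 kb, and longest empty stretches of 20.3 Mb on chromosome 12 and 15.5 Mb on chromosome 14, so their order turned. Without peaks of the smallest width the density was 0.889 per Mb, the median width 159 bp and the longest stretch on chromosome 14 14.5 Mb. Fewer peaks entered both versions by construction. Merging within 1000 bp lowered the share with a neighbour within 10 kb from 26.6% to 17.4%. Windows of 5 Mb left 14.3% empty. Merging within 10 kb, added after seeing the data, gave 0.893 regions per Mb and a 5.12-fold difference, and leaving out chromosomes 5, 8, 11 and 19, also added, gave 4.95-fold. The median width differed from that of the other autosomes by -15.5 bp in the full list (95% interval -27 to -1). It differed by -14.5 bp among wider peaks (-28 to 0) and by -10 bp without the smallest width (-25 to 4). These intervals are those of the median of chromosomes 12 and 14, less the other median taken as fixed. The difference was within counting error in both alternatives, and an upper end of -1 bp does not set the full list clearly apart from them.

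No paired analysis was possible because the 2 ChIP samples share 1 list, so leaving out 1 of them was not run. Density without assembly gaps, distance to transcription starts and AP-1 motifs were planned but not run, since no mm9 genome or annotation was used here.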
